A study of Mus musculus with 18 samples.

Results

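Neonatal mouse ventricular cardiac fibroblasts made to overexpress Foxm1 (labelled OE-Foxm1, 3 libraries) were compared with the control made for that overexpression (labelled OE-NC, 3 libraries). Of the 18264 genes measured, the 11259 with a mean of at least 1 FPKM over these 6 libraries were tested. FPKM is the number of sequenced fragments of a gene, scaled to the gene's length and to the library's total. The full series held 18 libraries in 6 groups of 3. The other groups formed a knockdown arm, with a control siRNA (si-NC), an siRNA against Foxm1 (si-Foxm1), angiotensin II (Ang-II), and the Foxm1 siRNA with angiotensin II (si-Foxm1+Ang-II). The series was set up to look for the ways in which Foxm1 acts in cardiac remodelling. The sources used here name neither the overexpression vector nor its promoter, and they do not give the time between transfer and harvest or the age and strain of the mice. They also do not say whether the 3 libraries of a group came from separate cultures, so the p-values below measure only the spread between these libraries.

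FOXM1 is a forkhead transcription factor of dividing cells. It works with the MuvB complex and B-MYB at promoters of genes needed for G2 phase and mitosis, such as the mitotic cyclins, the polo-like and Aurora kinases and centromere proteins. In cardiac fibroblasts, proliferation, matrix production and inflammatory signalling are the activities usually followed, since these cells make most of the collagen of an injured heart.

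The OE-NC libraries held 14988993, 15755947 and 16384195 counted fragments, fewer than the 17450690 to 18088104 of the OE-Foxm1 libraries. At these depths 3 fragments, the upper limit that a count of 0 allows, correspond to 0.166 to 0.200 FPKM for a gene of 1 kb. Fibroblast markers were abundant, as in Vim, an intermediate filament gene, at 1210 to 1316 FPKM, and all 19 fibroblast markers in the table were above 0, although Fap and Pi16 stayed under 1 FPKM in all 6 libraries. All 24 cardiomyocyte markers were also present. Their summed level was 10560 to 11100 FPKM in OE-NC and 11760 to 12330 FPKM in OE-Foxm1. It exceeded the summed level of the 19 fibroblast markers (4037 to 4284 and 4704 to 4862 FPKM). The libraries therefore carried cardiomyocyte transcripts under a fibroblast label.

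The OE-NC group stood apart from the rest of the series. All 3 OE-NC libraries lay above all of the other 15 libraries for 1953 of the tested genes (17.35%) and below them for 1216 (10.80%). The OE-Foxm1 libraries did so for 578 genes (5.134%) and 152 genes (1.350%). These counts include the OE-Foxm1 libraries of the same arm among the other 15. For this reason the position of si-NC, the control of the knockdown arm, is given beside the main results.

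Foxm1 itself rose strongly. It read 15.7, 17.1 and 17.1 FPKM in the OE-NC libraries and 399, 480.0 and 487 FPKM in the OE-Foxm1 libraries, with no overlap. The means were 16.6 ± 0.803 and 455 ± 48.65 FPKM (SD, n = 3 each), a 27.4-fold difference and a log2 fold change of 4.69 ± 0.07 (standard error). Log2 fold changes here are differences of log2(FPKM + 1), a scale that understates the change of weakly expressed genes. limma's moderated test gave an adjusted p of 3.37e-11, and a two-sided exact permutation test gave p = 0.1, the smallest that 3 libraries against 3 allow. Foxm1 was the 108th most abundant gene in OE-Foxm1 and the 3944th in OE-NC, and took 0.174% to 0.212% of all counted fragments against 0.00686% to 0.00748%. Fragments from an introduced copy and from the cells' own gene cannot be told apart in these values. The level in OE-NC was itself 1.65-fold that in si-NC (10.4, 9.64 and 10.3 FPKM), and the knockdown arm with siRNA read lower still, at 5.13 to 6.71 FPKM in si-Foxm1.

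Genes next to Foxm1 in the RefSeq gene order, chosen after their values were seen, moved little. Rhno1, its nearest tested neighbour, had a log2 fold change of 0.01 ± 0.04 (limma adjusted p = 0.807). Tulp3 was 0.25 ± 0.04 higher (adjusted p = 0.000699) and Itfg2 fell by 0.17 ± 0.04 (adjusted p = 0.00723).

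Across all tested genes the response was broad and mostly small. At an adjusted p under 0.05 (limma with Benjamini-Hochberg adjustment over the 11259 genes), 3052 genes were higher in OE-Foxm1 (27.1%) and 3148 were lower (28.0%). Most of these changes were small, since 5580 of the called genes (90.0%) changed by less than 0.5 on the log2 scale and the median size was 0.25. Only 34 genes rose and 31 fell by at least 2-fold on this scale. The 3 libraries of each group did not overlap in 6040 of the 6200 called genes and in 7004 (62.2%) of all tested genes. The median log2 fold change of all tested genes was -0.001. At the edge of the expression filter, Trim17 (1.002 FPKM) and Prdm10 (1.0022 FPKM) lay just inside and Sox18 (0.9998 FPKM) and Crybb3 (0.9992 FPKM) just outside. In these bulk samples, fewer cells of a type and less RNA per cell cannot be told apart.

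**Figure D1:**
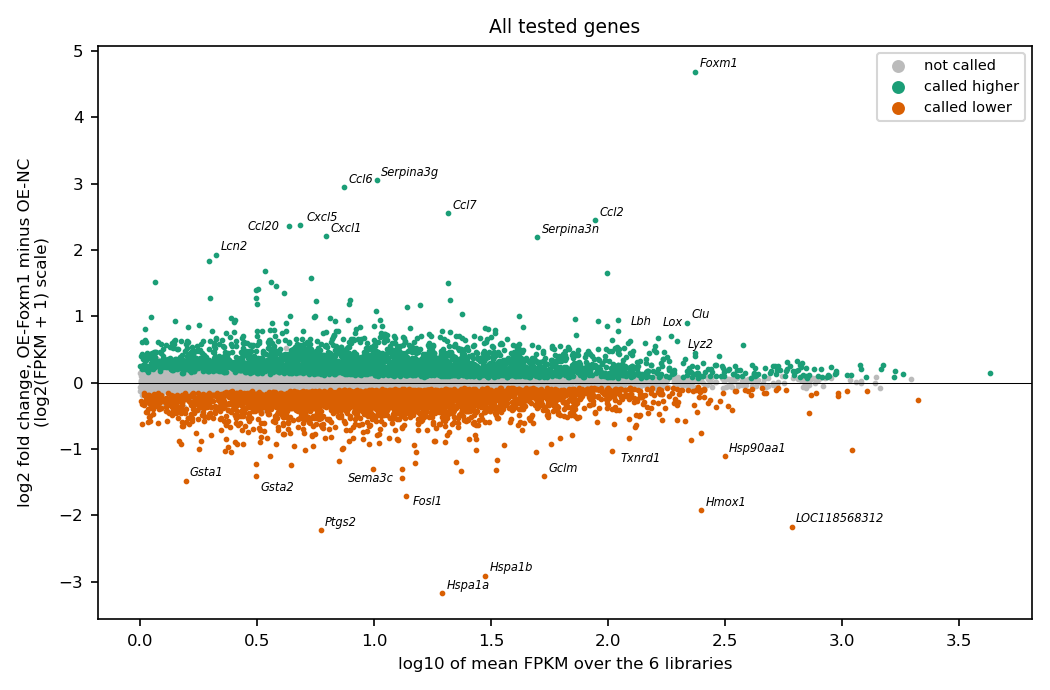
Log2 fold change between OE-Foxm1 and OE-NC on the log2(FPKM + 1) scale (vertical axis) against the log10 of mean FPKM over the 6 libraries (horizontal axis), 1 point per tested gene, with the called genes coloured and the largest changes named. Foxm1 stands alone at 4.69, Hspa1a is lowest at -3.17, and most called genes lie close to 0.

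The 10 largest rises were Foxm1 followed by chemokines, serpins and Lcn2. Ccl2, a chemokine that recruits monocytes, read 25.3, 27.3 and 27.0 FPKM in OE-NC and 146, 135 and 169.9 FPKM in OE-Foxm1, a log2 fold change of 2.45 ± 0.07 (limma adjusted p = 4.22e-09). Ccl7, which shares its receptor and lies in the same chemokine family, went from 5.91, 4.596 and 5.56 FPKM to 34.7, 33.8 and 40.4 FPKM (2.55 ± 0.08, adjusted p = 7.96e-09). In both genes every OE-Foxm1 library was above every OE-NC library, and si-NC (23.0 to 26.7 FPKM for Ccl2 and 5.94 to 7.17 FPKM for Ccl7) lay near OE-NC. Ccl6, another CC chemokine, rose from 1.07, 0.796 and 0.978 FPKM to 14.3, 15.1 and 12.6 FPKM (2.94 ± 0.07). Ccl20, the ligand of CCR6, rose from 0.749, 0.791 and 0.685 FPKM to 7.65, 8.57 and 7.66 FPKM (2.36 ± 0.06). Cxcl5 and Cxcl1 encode chemokines that attract neutrophils. Their log2 fold changes were 2.38 ± 0.12 for Cxcl5 and 2.21 ± 0.09 for Cxcl1, again without overlap between the groups.

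The serpins of the list are protease inhibitors of the Serpina3 cluster, whose near-identical copies can share fragments, so the split between them is uncertain. Serpina3n, a secreted acute-phase inhibitor, read 17.5, 16.4 and 17.7 FPKM in OE-NC and 80.4, 79.2 and 88.6 FPKM in OE-Foxm1 (2.20 ± 0.05, limma adjusted p = 6.26e-10). Serpina3g read 1.36, 1.30 and 1.57 FPKM against 18.4, 16.4 and 22.6 FPKM, which was the largest rise after Foxm1 at 3.05 ± 0.10. Both genes were separated in all libraries, and the si-NC level of Serpina3n (27.7 to 31.7 FPKM) lay between the groups. Lcn2, a secreted protein that binds bacterial iron carriers, rose by 1.93 ± 0.10 from a very low base of 2, 4 and 6 fragments in the OE-NC libraries against 52, 59 and 67 in OE-Foxm1.

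The 10 largest falls were led by inducible heat shock and oxidative stress genes. Hspa1a, an inducible HSP70, read 41.6, 34.4 and 32.4 FPKM in OE-NC and 3.22, 2.68 and 3.41 FPKM in OE-Foxm1, an 11.6-fold difference of the means (log2 fold change -3.17 ± 0.09, limma adjusted p = 4.22e-09). Hmox1, which degrades heme, read 417, 395 and 379 FPKM against 100.6, 103 and 108 FPKM (-1.92 ± 0.04, adjusted p = 6.26e-10). Ptgs2, the inducible cyclooxygenase of prostaglandin synthesis, read 11.4, 10.1 and 9.74 FPKM against 1.31, 1.27 and 1.75 FPKM (-2.23 ± 0.08). In all 3 genes OE-NC was above every other library of the series, and OE-Foxm1 lay nearer than OE-NC to si-NC, which read 1.34 to 1.45 FPKM for Hspa1a, 61.6 to 65.8 FPKM for Hmox1 and 1.31 to 1.51 FPKM for Ptgs2. Fosl1, an AP-1 subunit, fell by 1.72 ± 0.06, and Sema3c, a secreted guidance factor, fell by 1.44 ± 0.05. The glutathione transferases Gsta1 and Gsta2 fell by 1.48 ± 0.13 and 1.41 ± 0.11, but Gsta1 rested on 4, 2 and 11 fragments in OE-Foxm1 and the 2 genes can share fragments. An unnamed locus, LOC118568312, fell by 2.17 ± 0.11 from 836, 1095 and 1069 FPKM to 254, 186 and 224 FPKM.

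**Figure D2:**
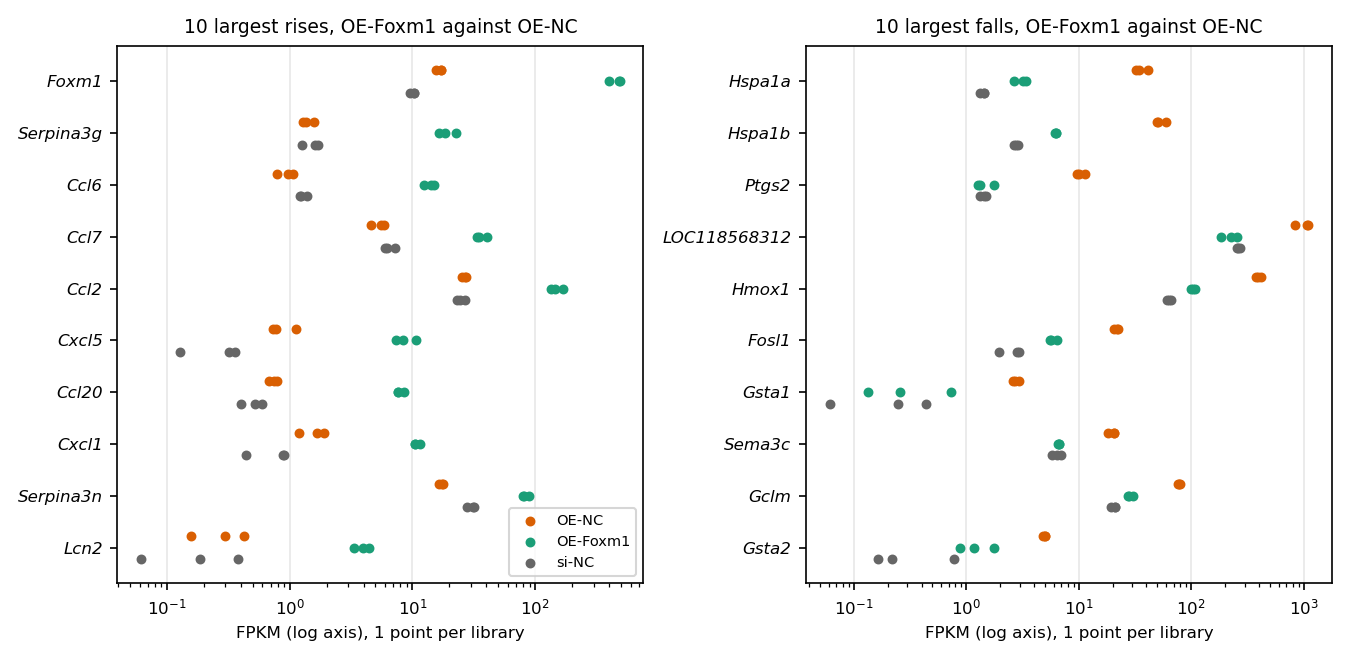
FPKM on a log axis for the 10 genes with the largest rise (left) and the 10 with the largest fall (right), 1 point per library, for OE-NC, OE-Foxm1 and the knockdown arm's control si-NC. The genes were chosen among those whose groups do not overlap. Among the falls si-NC lies nearer OE-Foxm1 than OE-NC, as in Hmox1 at 61.6 to 65.8 FPKM.

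The position of si-NC differed between rises and falls, as a description without a test. Among the 3148 genes called lower, OE-Foxm1 was closer than OE-NC to si-NC in 2751 (87.4%), against 67.4% of all tested genes; such a gene is said below to move toward si-NC. Among the 3052 called higher it was closer in 1899 (62.2%). For the 31 genes that fell at least 2-fold the count was 31, and in 28 of them OE-NC lay above all of the other 15 libraries. For the 34 genes that rose at least 2-fold the count was 7, and in 29 of them OE-Foxm1 lay above all of the other 15 libraries. Some of the 34, such as Ccl20, passed the expression filter only through their level in OE-Foxm1, which favours such a position. The large falls were thus mostly genes high in OE-NC alone, and the large rises mostly genes high in OE-Foxm1 alone. Over all called genes, OE-NC lay above the other 15 libraries in 1812 of those called lower and below them in 1140 of those called higher, and OE-Foxm1 lay above them in 516 of those called higher and below them in 136 of those called lower. Where OE-NC is the group apart, in falls and rises alike, an effect of Foxm1 and a difference of the OE-NC cells from all others cannot be told apart.

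Among the 621 genes with at least 100 FPKM in OE-NC, 5 changed by 2-fold or more. The 4 largest rises in that range were smaller than this. Clu, a secreted chaperone, rose from 155, 152 and 148 FPKM to 277, 286 and 291 FPKM (log2 fold change 0.90 ± 0.03). Lox, the enzyme that cross-links collagen and elastin, rose from 141, 140.1 and 146 FPKM to 248, 240.2 and 205 FPKM (0.69 ± 0.06), while si-NC read 421 to 465 FPKM. The transcription cofactor Lbh rose by 0.68 ± 0.03 and lysozyme Lyz2 by 0.62 ± 0.05. The groups did not overlap in any of the 4, and limma's adjusted p was at most 6.31e-06. Falling abundant genes, besides Hmox1 and LOC118568312, were Hsp90aa1 (-1.10 ± 0.03) and the thioredoxin reductase Txnrd1 (-1.04 ± 0.03).

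The established FOXM1 target genes did not rise together. Of 30 tested, 5 were higher (16.7%, against 27.1% of all genes) and 11 were lower (36.7%, against 28.0%), with a median log2 fold change of -0.05. The centromeric histone gene Cenpa rose from 34.3, 32.8 and 34.6 FPKM to 43.9, 42.1 and 45.1 FPKM (0.36 ± 0.04, limma adjusted p = 1.94e-05). The other 4 that rose were Arhgap11a, a RhoGAP of cytokinesis (0.27), Aspm, a spindle pole protein (0.26), the kinetochore gene Cenpf (0.24) and the phosphatase Cdc25c (0.21). Skp2, the F-box protein that targets p27 for degradation, fell from 8.11, 7.26 and 7.34 FPKM to 4.83, 3.84 and 4.998 FPKM (-0.63 ± 0.08, adjusted p = 8.27e-05). Ccnf (-0.47), the kinase Aurka (-0.30) and the hyaluronan receptor Hmmr (-0.30 ± 0.05) also fell. The count of lower members depended on the libraries used. It ranged from 7 to 16 when each library was left out in turn, with 7 without OE-Foxm1 replicate 2 and 7 without OE-NC replicate 3. Main mitotic genes were close to their control level: Plk1 read 21.9, 21.8 and 24.8 FPKM against 19.6, 18.1 and 23.3 FPKM (-0.17, adjusted p = 0.0997), and the groups overlapped. Birc5, survivin, read 32.7, 31.1 and 31.3 FPKM against 28.6, 30.2 and 33.2 FPKM (-0.05, adjusted p = 0.4), also with overlap. These genes were high in both groups. The 30 members summed to 684 to 702 FPKM in OE-NC, against 409 to 431 FPKM in si-NC. In OE-Foxm1 replicates 1, 2 and 3 they summed to 645, 650 and 722 FPKM. All 11 members called lower moved toward si-NC, as did 87.4% of all genes called lower. None of the 5 called higher did, against 62.2% of all genes called higher.

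Promoters of called target genes are shown because the cell cycle homology region, whose core is TTTGAA, is where MuvB complexes bind promoters of late cell cycle genes. RefSeq promoter windows of GRCm38.p6 (250 bases before each start) were available for 9041 of the tested genes. On either strand, TTTGAA was present in 12.6% of them and in 8 of 26 FOXM1 target genes (30.8%). CCAAT was present in 40.7% and in 22 of 26 targets (84.6%), and TGTTTA, a forkhead core, in 8.93% and in 6 of 26. Below are Skp2 (chr15:9155426-9155530, minus strand), Ccnf (chr17:24251410-24251473, minus strand) and Arhgap11a (chr2:113848705-113848810, minus strand), written 5′ to 3′ along the gene, with TTTGAA in capitals.
Skp2: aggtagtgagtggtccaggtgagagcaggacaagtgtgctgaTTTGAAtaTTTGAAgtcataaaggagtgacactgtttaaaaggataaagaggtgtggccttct
Ccnf: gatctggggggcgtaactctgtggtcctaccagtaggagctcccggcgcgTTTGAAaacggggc
Arhgap11a: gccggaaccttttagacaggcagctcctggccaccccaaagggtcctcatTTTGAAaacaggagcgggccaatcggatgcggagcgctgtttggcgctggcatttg
Of the 8 target genes that hold TTTGAA, 1 was called higher and 2 lower, and of the 18 without it 3 were higher and 8 lower. Over all genes with TTTGAA, 26.3% were higher and 27.0% lower of 1138, close to the 27.1% and 28.0% of all tested genes. A match describes letters in this window only.

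Genes of DNA replication and S phase fell almost throughout. Of 41 tested, 36 were lower (87.8%, against 28.0% of all tested genes) and 1 was higher (2.44%, against 27.1%). The median log2 fold change was -0.32. Ccne2, cyclin E2 of the G1 to S transition, fell from 19.2, 18.8 and 19.4 FPKM to 7.27, 7.07 and 7.05 FPKM (-1.31 ± 0.04, limma adjusted p = 4.22e-09). Mcm6, a subunit of the replicative helicase, fell from 32.7, 34.4 and 33.4 FPKM to 21.2, 21.1 and 21.2 FPKM (-0.64 ± 0.03, adjusted p = 2.37e-07). The licensing factor Cdt1 (-0.62), Ccne1 (-0.71), the chromatin assembly gene Chaf1b (-0.64) and Pcna, the sliding clamp (-0.30), fell as well. The exception was Gmnn, geminin, the inhibitor of Cdt1, which rose from 8.03, 7.44 and 7.72 FPKM to 13.5, 13.7 and 13.6 FPKM (0.74 ± 0.04, adjusted p = 4.16e-07) and was higher in OE-Foxm1 than in all of the other 15 libraries. All 36 genes called lower moved toward si-NC, as did 87.4% of all genes called lower. In 28 of the 41 members OE-NC was above all of the other 15 libraries, against 17.35% of all tested genes. All 42 genes of the list, tested or not, summed to 793 to 807 FPKM in OE-NC, 592 to 640 FPKM in OE-Foxm1 and 450 to 477 FPKM in si-NC. OE-Foxm1 thus stayed above the knockdown arm's control.

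Mitosis and spindle genes followed less uniformly, with 5 of 40 higher (12.5%) and 19 lower (47.5%), and a median of -0.12. The shares of all tested genes were 27.1% higher and 28.0% lower. Pttg1, securin, rose from 8.37, 8.11 and 7.87 FPKM to 13.0, 14.96 and 14.3 FPKM (0.72 ± 0.05, limma adjusted p = 2.05e-06). Ckap2, a spindle-associated protein, rose from 14.9, 13.9 and 16.3 FPKM to 20.3, 20.9 and 21.5 FPKM (0.45 ± 0.05, adjusted p = 5.03e-05). In contrast Prc1, which bundles microtubules of the central spindle, fell from 35.9, 34.8 and 37.3 FPKM to 25.5, 25.1 and 28.5 FPKM (-0.44 ± 0.05). The proliferation marker Mki67 (-0.36) and the topoisomerase Top2a (-0.32) fell too. As in the target list, all 19 members called lower moved toward si-NC and none of the 5 called higher did. The shares were 87.4% of all genes called lower and 62.2% of all genes called higher.

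Genes of DNA repair and of the MuvB group were lower more often than the 28.0% of all tested genes. DNA repair genes were higher in 3 and lower in 15 of 25, with the checkpoint kinase Chek1 (-0.59 ± 0.06), its activator Topbp1 (-0.48 ± 0.04) and the mismatch repair gene Msh6 (-0.41 ± 0.05) among the falls. Genes of the MuvB, DREAM and pocket protein group were lower in 12 of 19, led by the repressor E2f7 (-0.70 ± 0.05), and the E2F partner Tfdp1 fell by 0.45 ± 0.03. The 1 member of this group that was higher, Rbl2, was not called when any of OE-Foxm1 replicates 1, 2 or 3 or OE-NC replicates 1 or 3 was left out. Cell cycle brakes and G1 cyclins were near the shares of all tested genes (27.1% higher and 28.0% lower), with 4 of 14 higher (28.6%) and 5 lower (35.7%). Cdkn1b, the inhibitor p27 that SKP2 degrades, rose from 19.8, 19.9 and 19.6 FPKM to 23.5, 24.5 and 23.5 FPKM (0.26 ± 0.03, limma adjusted p = 0.000111). Cdk2 (-0.56 ± 0.06) and cyclin Ccnd3 (-0.36 ± 0.05) fell. Targets of p53 were also near those shares, higher in 6 (24.0%) and lower in 9 (36.0%) of 25, with the kinase Plk2 at -1.04 ± 0.04 and the apoptosis gene Perp at -0.64 ± 0.03.

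Heat shock chaperones were the list with the lowest median, -0.57, among the lists with at least 10 tested members. Of 17 tested, 15 were lower (88.2%, against 28.0% of all tested genes) and 1 was higher (5.88%, against 27.1%). Hspa1b, a near-identical copy of Hspa1a, fell from 60.2, 50.2 and 50.1 FPKM to 6.28, 6.32 and 6.09 FPKM (-2.91 ± 0.06, limma adjusted p = 6.26e-10), and fragments can be split between the 2 copies. Abundant chaperones moved with Hspa1a and Hspa1b: Hsp90aa1, a cytosolic HSP90, read 449.9, 430.1 and 415 FPKM against 196, 203 and 202 FPKM (adjusted p = 6.18e-09). Hspa8, the constitutive HSC70, read 1539, 1456 and 1456 FPKM against 726, 742 and 736 FPKM (-1.01 ± 0.03, adjusted p = 6.45e-09), which makes it the most abundant of the genes that fell by at least 2-fold. Hsph1 (-1.17), a co-chaperone of HSP70, and the mitochondrial chaperonin Hspd1 (-0.86) fell as well. Hsf1, the transcription factor that induces these genes, was the member that rose (0.28 ± 0.04), and the co-chaperone Bag3 was at -0.05 (adjusted p = 0.251) with overlapping groups. Every one of the 15 called lower moved toward si-NC, as did 87.4% of all genes called lower. OE-NC lay above all of the other 15 libraries in 15 of the 17 members, against 17.35% of all tested genes. The list summed to 4113 to 4366 FPKM in OE-NC, 2455 to 2477 FPKM in OE-Foxm1 and 2182 to 2243 FPKM in si-NC.

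Promoters of 3 chaperones are shown for the core of the heat shock element, GAANNTTC, the inverted repeat bound by HSF1, which was searched after the values had been seen. It was present in 5.97% of all 9041 promoter windows and in 6 of 12 heat shock chaperones with a window. Over all called genes with a window, 6.37% of those lower and 5.66% of those higher held it, close to the share of all windows. Capitals mark it in Hspa1b (chr17:34959285-34959392, minus strand), Hspa1a (chr17:34972203-34972310, minus strand) and Hspd1 (chr1:55088014-55088121, minus strand), all from RefSeq on GRCm38.p6. The printed windows of Hspa1a and Hspa1b are identical.
Hspa1b: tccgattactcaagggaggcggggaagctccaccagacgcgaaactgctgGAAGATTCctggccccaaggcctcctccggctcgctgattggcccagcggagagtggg
Hspa1a: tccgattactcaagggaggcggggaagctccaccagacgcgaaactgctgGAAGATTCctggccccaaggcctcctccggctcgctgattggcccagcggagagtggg
Hspd1: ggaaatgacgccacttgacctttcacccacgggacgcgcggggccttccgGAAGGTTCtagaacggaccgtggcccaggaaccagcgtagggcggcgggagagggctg

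Members of a mixed list of NRF2, antioxidant and related redox genes were also lower more often than all tested genes (28.0%). Of 23 tested, 14 were lower (60.9%) and 5 were higher (21.7%), with a median of -0.26. The 5 that rose became 3 under quantile normalization, with all 6 groups in the fit, and without OE-Foxm1 replicates 1 or 2 or OE-NC replicate 3. Gclm, the modifier subunit of the enzyme that starts glutathione synthesis, fell from 79.3, 78.4 and 76.5 FPKM to 27.3, 28.2 and 30.5 FPKM (-1.42 ± 0.04, limma adjusted p = 4.22e-09). Srxn1, sulfiredoxin, which restores oxidised peroxiredoxins, fell from 47.3, 49.9 and 46.5 FPKM to 17.8, 19.1 and 19.0 FPKM (-1.32 ± 0.04, adjusted p = 5.54e-09). Slc7a11, the cystine importer, fell by 1.30 ± 0.08, and the catalytic partner of Gclm, Gclc, fell by 0.79. The secreted superoxide dismutase Sod3 was among the 5 that rose (0.59), as were Gpx3 (0.33), a secreted peroxidase, Nox4 (0.19), an oxidase that makes reactive oxygen, Txnip (0.13), an inhibitor of thioredoxin, and the metallothionein Mt1 (0.10). For Gclm, Srxn1 and Hmox1 the si-NC libraries read even lower than OE-Foxm1, at 19.5 to 21.1 FPKM for Gclm and 9.94 to 10.7 FPKM for Srxn1.

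The antioxidant response element, TGACNNNGC, was searched in the same windows after the values had been seen. On either strand it was present in 13.9% of all windows and in 5 of 19 genes of the list (26.3%). Over all called genes with a window, 15.3% of those lower and 12.8% of those higher held it, close to the share of all windows. Gclm (chr3:122245373-122245481, plus strand) and Txnrd1 (chr10:82859064-82859172, plus strand) are shown as called members with the element, taken in order of p. Both fell by more than 2-fold, and in both the capitals mark the element on the opposite strand.
Gclm: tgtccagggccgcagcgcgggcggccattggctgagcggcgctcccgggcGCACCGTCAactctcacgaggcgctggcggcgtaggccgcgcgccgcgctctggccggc
Txnrd1: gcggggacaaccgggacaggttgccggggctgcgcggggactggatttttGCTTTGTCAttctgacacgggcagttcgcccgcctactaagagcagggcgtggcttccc

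Protein degradation genes leaned the same way, although by little. Of 26 proteasome subunits, 17 were lower (65.4%) and 0 were higher in limma at an adjusted p under 0.05. Of all tested genes, 28.0% were lower and 27.1% higher. The list median was -0.15, and all 17 moved toward si-NC, as did 87.4% of all genes called lower. The count of higher members was also 0 at an unadjusted p under 0.05 and with voom on recovered counts. Psmd1, of the regulatory particle, fell by 0.35 ± 0.04, and Psma1, of the core, by 0.24 ± 0.03. Lysosomal genes went up instead, with 19 of 25 higher (76.0%) and 3 lower, and a median of 0.14. Hexa, a hexosaminidase, rose from 94.4, 92.2 and 98.0 FPKM to 128, 130.4 and 128 FPKM (0.43 ± 0.03), whereas Sqstm1, an autophagy receptor gene, fell by 0.48 ± 0.03. Integrated stress response genes were lower in 12 (50%) and higher in 5 of 24, against 28.0% and 27.1% of all tested genes, with the serine synthesis enzyme Psat1 at -0.51 ± 0.03 and the stress-induced Sesn2 at -0.69 ± 0.04.

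**Figure D3:**
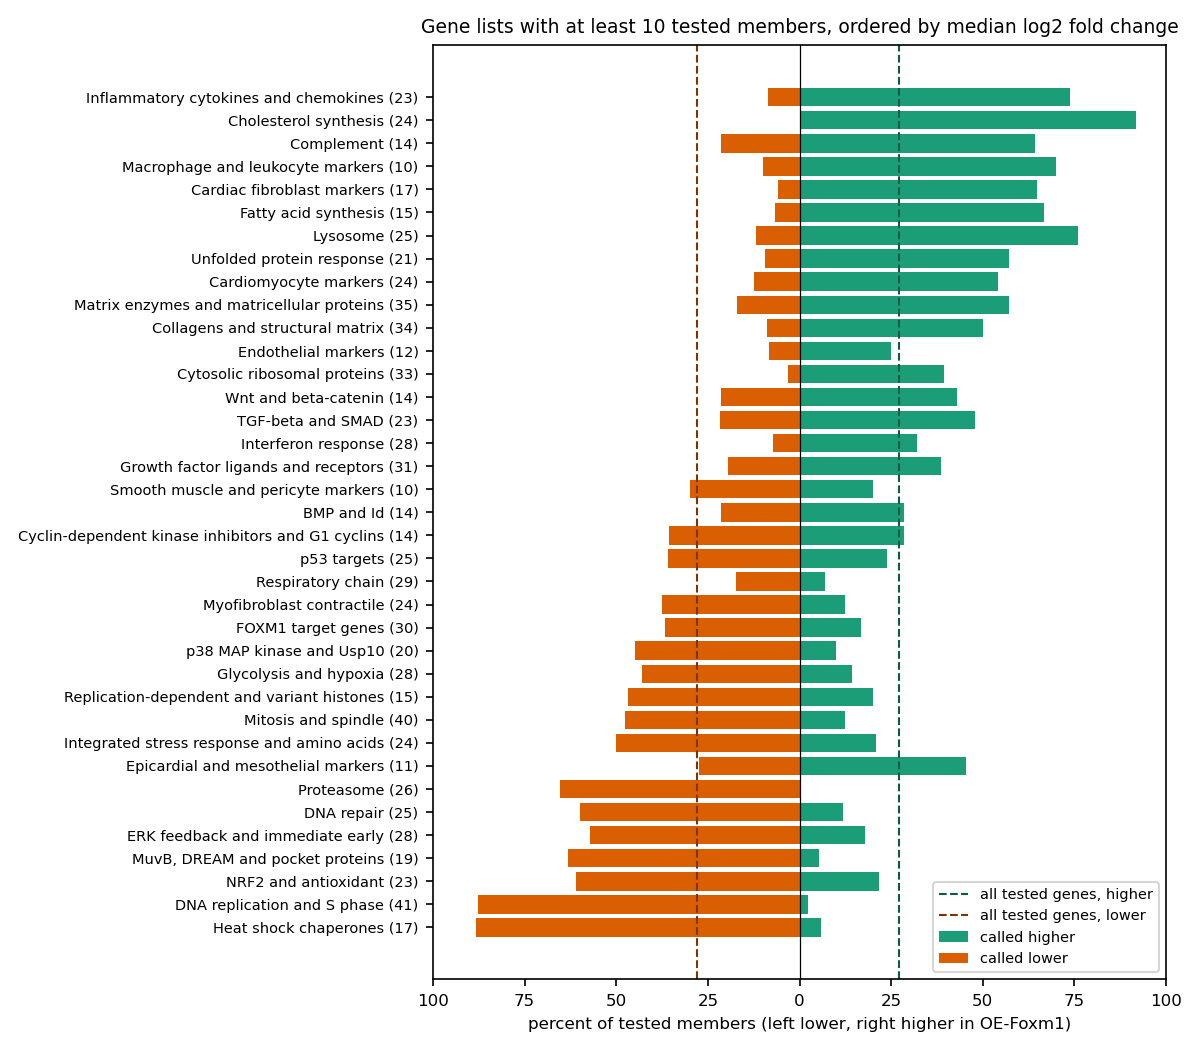
Percent of the tested members of each list (number in brackets) called higher, to the right in green, or lower, to the left in orange, in OE-Foxm1 against OE-NC, for lists with at least 10 tested members. Dashed lines mark the share of all tested genes called higher (27.1%) and lower (28.0%); cholesterol synthesis reaches 91.7% higher, and heat shock chaperones 88.2% lower.

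Inflammatory cytokines and chemokines had the highest list median, 0.66, among the lists with at least 10 tested members. Of 35 in the table, 23 passed the expression filter. Of these, 17 were higher (73.9%, against 27.1% of all tested genes) and 2 were lower (8.7%, against 28.0%). Because 4 of the 23 passed only through their level in OE-Foxm1 and so had to be higher, these shares are a description. Of the 19 members with an OE-NC mean of at least 1 FPKM, 13 were higher and 2 lower, with a median of 0.50. Icam1, an adhesion receptor for leukocytes, rose from 4.17, 4.38 and 4.55 FPKM to 10.6, 11.4 and 11.7 FPKM (1.19 ± 0.05, limma adjusted p = 7.41e-08). Genes of the NF-kappa B pathway rose with it, namely Nfkbia, its inhibitor (0.70), Relb (0.66), Nfkb1 (0.50) and Nfkb2 (0.32). The cytokine Il6 rose from 3.63, 3.84 and 4.76 FPKM to 6.69, 5.93 and 5.18 FPKM (0.45 ± 0.09, adjusted p = 0.00212). The 2 members that were lower were Ptgs2 and Cxcl10, an interferon-induced chemokine whose groups overlapped (4.24, 2.77 and 2.11 FPKM against 1.004, 1.56 and 2.27 FPKM, adjusted p = 0.0187). Only Ptgs2 remained called lower without OE-Foxm1 replicate 1 or without OE-NC replicate 1. OE-Foxm1 was above all of the other 15 libraries in 14 of the 23 members, against 5.134% of all tested genes. The 4 members that passed only through OE-Foxm1 are among these 23, so this count is a description too. All 35 genes together summed to 353 to 361 FPKM in OE-NC, 629 to 711 FPKM in OE-Foxm1 and 313 to 329 FPKM in si-NC.

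Markers of macrophages and other leukocytes moved with these genes. Of 10 tested, 7 were higher (70.0%) and 1 was lower. Of all tested genes, 27.1% were higher and 28.0% lower. All 16 markers, tested or not, summed to 203 to 220.3 FPKM in OE-NC, 287 to 325 FPKM in OE-Foxm1 and 266 to 274 FPKM in si-NC. Adgre1, the macrophage antigen F4/80, read 1.24, 1.29 and 1.40 FPKM against 3.20, 3.59 and 3.89 FPKM (0.98 ± 0.07, limma adjusted p = 1.48e-06), and Csf1r, the receptor for macrophage growth factor, rose by 0.64 ± 0.06. The complement genes C1qb and C1qc, which macrophages express, fell instead, from 3.99, 3.39 and 4.26 FPKM to 2.05, 1.77 and 1.91 FPKM for C1qb (-0.74). C1qa (-0.35) was the marker that was lower, and it was not called without OE-NC replicate 3. The defining leukocyte marker Ptprc stayed under 1 FPKM in all 6 libraries, and Cd163 was at 0. The part of leukocyte transcripts in the rise of the chemokines was not tested.

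Promoters of a chemokine, an adhesion receptor and a growth factor are shown for GGANNTTCC, a form of the kappa B element, which was likewise searched after the values had been seen. It was present in 4.46% of all windows and in 8 of 15 genes of the inflammatory list with a window (53.3%). Over all called genes with a window, 4.8% of those higher and 3.81% of those lower held it, close to the share of all windows. Capitals mark it in Cxcl1 (chr5:90891125-90891233, plus strand), Icam1 (chr9:21015737-21015845, plus strand) and Csf1, a macrophage growth factor (chr3:107760565-107760673, minus strand). In Csf1 the capitals mark it on the opposite strand.
Cxcl1: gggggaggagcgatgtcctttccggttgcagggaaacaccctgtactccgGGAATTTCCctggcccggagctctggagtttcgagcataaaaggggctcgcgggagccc
Icam1: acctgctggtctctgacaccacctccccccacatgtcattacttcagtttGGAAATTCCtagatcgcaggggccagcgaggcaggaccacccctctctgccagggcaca
Csf1: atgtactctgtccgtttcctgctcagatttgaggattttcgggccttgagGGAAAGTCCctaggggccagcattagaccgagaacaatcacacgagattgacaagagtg
The rise was 2.21 for Cxcl1, 1.19 for Icam1 and 0.45 for Csf1.

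Complement genes were higher in 9 (64.3%) and lower in 3 (21.4%) of 14, against 27.1% and 28.0% of all tested genes. The central component C3 rose from 1.24, 1.73 and 1.64 FPKM to 4.05, 4.81 and 5.47 FPKM (1.18 ± 0.10, limma adjusted p = 5.13e-06) and the protease C1s1 rose by 0.94 ± 0.07, while the 3 that fell were C1qa, C1qb and C1qc. Interferon response genes were higher in 9 of 28 (32.1%), near the 27.1% of all tested genes. They were lower in 2 (7.14%, against 28.0%), with a median of 0.06. The list was high in both groups, at 318 to 343 FPKM in OE-NC and 338 to 352 FPKM in OE-Foxm1, against 161 to 192 FPKM in si-NC. Ifit3, an interferon-induced antiviral gene, rose by 0.55 ± 0.06 and the GTPase Gbp2 by 0.62 ± 0.07, and Oasl1 fell by 1.03 ± 0.07. Isg15, the ubiquitin-like modifier, was at 0.01 and was not called.

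Cholesterol synthesis was the most uniform rise. Of 24 tested, 22 were higher (91.7%) and 0 were lower in limma at an adjusted p under 0.05, with a median of 0.42, and 0 were lower at an unadjusted p under 0.05 or with voom on recovered counts. The counts were again 22 and 0 under median-of-ratios scaling and quantile normalization. Mvk, mevalonate kinase, rose from 21.8, 19.6 and 22.3 FPKM to 39.1, 38.9 and 37.0 FPKM (0.82 ± 0.05, adjusted p = 4.63e-07). Lss, which forms lanosterol, rose from 23.4, 22.9 and 24.4 FPKM to 36.0, 35.9 and 37.4 FPKM (0.61 ± 0.04, adjusted p = 5.45e-07). Srebf2, the transcription factor that induces the pathway, rose with them (0.31). Most of the genes came closer to their si-NC level. Of the 22 called higher, 18 moved toward si-NC, against 62.2% of all genes called higher. OE-NC lay below all of the other 15 libraries in 12 of the 24, against 10.8% of all tested genes. The list summed to 1271 to 1315 FPKM in OE-NC, 1643 to 1708 FPKM in OE-Foxm1 and 1565 to 1598 FPKM in si-NC. Fatty acid synthesis genes behaved likewise, with 10 of 15 higher (66.7%, against 27.1% of all tested genes) and 1 lower (6.67%, against 28.0%). Acss2, which makes acetyl-CoA from acetate, rose by 0.70 ± 0.04 and the desaturase Scd2 by 0.56 ± 0.04. CCAAT was present in 16 of 16 cholesterol synthesis promoter windows, against 40.7% of all windows.

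**Figure D4:**
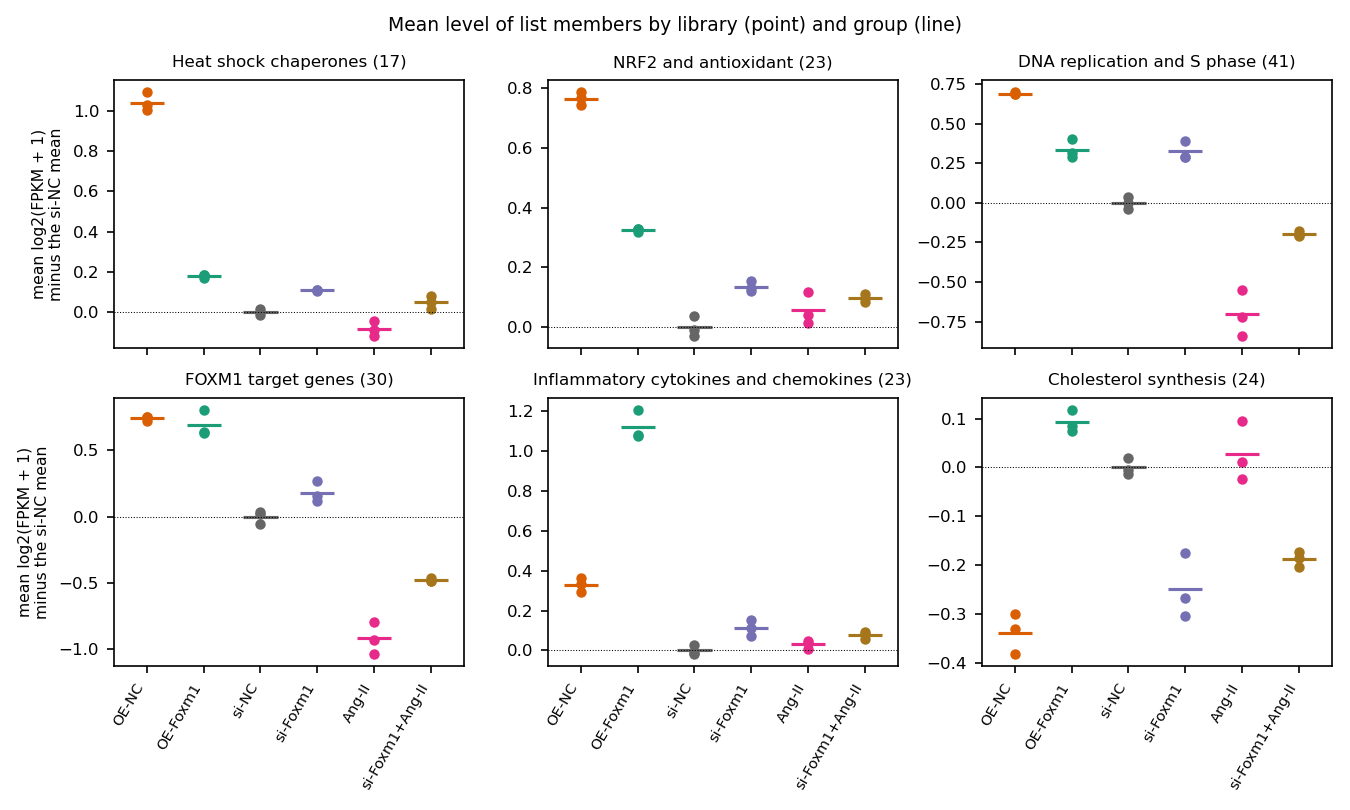
Mean log2(FPKM + 1) of the members of 6 lists, with the si-NC mean set to 0, for each library (points) and group (lines) of the series. For heat shock chaperones OE-NC reaches 1.09 at most and OE-Foxm1 at 0.17 to 0.18; for inflammatory genes OE-Foxm1 lies at 1.08 to 1.21 and OE-NC at 0.29 to 0.36.

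Structural matrix genes rose modestly. Of 34 collagens and other structural genes, 17 were higher and 3 were lower, with a median of 0.10, and the lower count was 5 under quantile normalization and with voom on recovered counts. Col1a1, the main chain of type I collagen, read 586, 551 and 587 FPKM in OE-NC and 704, 709.6 and 744 FPKM in OE-Foxm1 (0.32 ± 0.04, limma adjusted p = 3.24e-05). The proteoglycan genes Lum and Dcn, whose products bind collagen fibrils, rose more, by 1.24 ± 0.08 and 0.77 ± 0.04. Col15a1, a basement membrane collagen, fell from 5.03, 5.20 and 5.62 FPKM to 2.18, 2.35 and 2.44 FPKM (-0.92 ± 0.06), and Col6a3 and Col8a1 also fell. Col1a1 was higher in si-NC (718 to 756 FPKM) than in OE-NC. Of the 17 members called higher, 14 moved toward si-NC, against 62.2% of all genes called higher. Postn, periostin of activated fibroblasts, read 1064, 1061 and 1087 FPKM against 1103, 1112 and 1069 FPKM (0.03, adjusted p = 0.378), and the groups overlapped.

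Matrix enzymes and matricellular proteins were higher in 20 of 35 (57.1%) and lower in 6 (17.1%), with a median of 0.12. The shares of all tested genes were 27.1% and 28.0%. Mmp3, the protease stromelysin, rose from 10.7, 10.3 and 9.997 FPKM to 29.6, 29.7 and 33.9 FPKM (1.5 ± 0.05, limma adjusted p = 1.53e-08), above all of the other 15 libraries. Inhibitors of these proteases rose as well, with Timp3 at 0.64, Timp2 at 0.44 ± 0.03 and Timp1 at 0.41. Tnc, tenascin C, fell from 53.2, 55.2 and 52.6 FPKM to 30.2, 31.5 and 35.0 FPKM (-0.72 ± 0.05), and Ccn2, connective tissue growth factor, fell by 0.20. Contractile genes of myofibroblasts changed little, with 3 of 24 higher (12.5%) and 9 lower (37.5%). Acta2, smooth muscle actin, read 786, 760.0 and 810 FPKM against 694, 681 and 686 FPKM (-0.19 ± 0.03, adjusted p = 0.000412), and Tagln, transgelin, was at -0.00 (adjusted p = 0.925).

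Signalling groups were divided, and are set against the 27.1% of all tested genes called higher and the 28.0% called lower. TGF-beta and SMAD genes were higher in 11 (47.8%) and lower in 5 (21.7%) of 23. The induced matrix gene Tgfbi rose by 0.80 ± 0.05, while the inhibitory Smad7 (-0.46 ± 0.05) and the activin subunit Inhba (-0.36 ± 0.04) fell. BMP and Id genes were near those shares, higher in 4 (28.6%) and lower in 3 (21.4%) of 14. Among them Gdf15, a stress-induced ligand, went from 49.0, 46.7 and 46.5 FPKM to 23.7, 24.5 and 24.7 FPKM (-0.94 ± 0.03). The lower count was 5 with voom on recovered counts. Wnt genes were higher in 6 (42.9%) and lower in 3 (21.4%) of 14. Of the secreted antagonists Sfrp2 rose (0.77 ± 0.06) and Wif1 fell (-0.89 ± 0.07). Growth factors and their receptors were higher in 12 (38.7%) and lower in 6 (19.4%) of 31. Kitl, the ligand of the KIT receptor, fell from 35.8, 34.1 and 32.9 FPKM to 12.8, 13.3 and 13.1 FPKM (-1.33 ± 0.04, limma adjusted p = 4.6e-09). The EGF receptor ligand Hbegf fell by 0.83 ± 0.05.

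Immediate early and ERK feedback genes leaned down, with 16 of 28 lower (57.1%) and 5 higher (17.9%), against 28.0% and 27.1% of all tested genes. Phlda1 fell by 1.02 ± 0.04 and the transcription factor Myc by 0.57 ± 0.03, while Egr1 rose by 0.43. Genes of the p38 MAP kinase group were lower in 9 and higher in 2 of 20, and the higher count was 4 without OE-NC replicate 1 and with all 6 groups in the fit. The upstream kinase Map2k3 (-0.40 ± 0.03) and the p38 substrate kinase Mapkapk5 (-0.43 ± 0.04) fell, and Mapk11, p38 beta, rose (0.35). Usp10, a deubiquitinase, read 14.8, 14.1 and 14.4 FPKM in OE-NC and 10.4, 11.1 and 10.7 FPKM in OE-Foxm1 (-0.40 ± 0.04, limma adjusted p = 2.22e-05), and OE-NC was above all of the other 15 libraries. Mapk12, p38 gamma, read 8.84, 7.96 and 7.11 FPKM against 9.44, 8.10 and 8.62 FPKM (0.12 ± 0.07, adjusted p = 0.193) with overlap, and it was called higher without OE-NC replicate 1 (0.19, adjusted p = 0.0466). Over all alternatives its adjusted p ranged from 0.0466 to 0.587.

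Genes of energy metabolism and translation had list medians between -0.10 and 0.08. Their shares are set against the 27.1% of all tested genes called higher and the 28.0% called lower. Respiratory chain genes were higher in 2 (6.9%) and lower in 5 (17.2%) of 29, with 22 not called and a median of -0.02. The lower count was 11 under quantile normalization, and the higher count was 4 without OE-NC replicate 1 and 1 without OE-NC replicate 3 or any OE-Foxm1 replicate. Cytosolic ribosomal protein genes were higher in 13 of 33 (39.4%) and lower in 1 (3.03%), with every value between -0.12 and 0.20. That higher count depended on the libraries used. It was 5 without OE-Foxm1 replicate 1 or 2, 21 without OE-Foxm1 replicate 3, 4 without OE-NC replicate 2 or 3, and 7 with no expression filter. Glycolysis and hypoxia genes were lower in 12 (42.9%) and higher in 4 (14.3%) of 28. Hexokinase Hk2 was at -0.33 ± 0.03 and the hypoxia-induced Ndrg1 at 0.59 ± 0.05. Unfolded protein response genes were higher in 12 (57.1%) and lower in 2 (9.52%) of 21. Among the rises were the chaperone cofactor Sdf2l1 (0.54 ± 0.06) and the transcription factor Xbp1 (0.23 ± 0.03). The lower count was 1 without OE-Foxm1 replicate 1 or 3 or OE-NC replicate 1 or 2. Histone and chromatin genes were higher in 3 and lower in 7 of 15, with Hmgb2 at -0.72 ± 0.05 and Slbp, which binds histone mRNA, at -0.63 ± 0.05, and the higher count was 5 of 22 with a filter at 0.1 FPKM.

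Markers of the cell types that could be in these cultures are set against the 27.1% of all tested genes called higher and the 28.0% called lower. Fibroblast markers were higher in 11 and lower in 1 of 17, with the transcription factor Tcf21 rising by 0.48 and the surface antigen Thy1 falling from 211, 205 and 199 FPKM to 136, 129.7 and 147 FPKM (-0.57 ± 0.04). A second member was called lower without OE-NC replicate 2. Cardiomyocyte markers were higher in 13 and lower in 3 of 24, with a median of 0.12. The myosin Myh6 rose from 816, 854 and 824 FPKM to 979, 957 and 989 FPKM (0.23 ± 0.03, limma adjusted p = 0.00011) and Myh7 fell by 0.79 ± 0.05. Levels in si-NC were higher than in both groups, at 1496 to 1684 FPKM for Myh6. Endothelial markers were higher in 3 (25%) and lower in 1 of 12, no more often than all tested genes, with the sialomucin Emcn at 0.39 ± 0.07, and the member called lower, Cldn5 of tight junctions (-0.16), was not called when any of the 6 libraries was left out. The higher count was 6 with voom on recovered counts. Smooth muscle and pericyte markers were higher in 2 (20%) and lower in 3 (30%) of 10, near the shares of all tested genes, and the higher count was 1 without OE-Foxm1 replicate 1. Epicardial and mesothelial markers were higher in 5 and lower in 3 of 11, and the lower count was 5 without OE-Foxm1 replicate 3. The keratin Krt19 fell by 0.72 ± 0.07. Of 7 mast cell markers in the table, Mcpt4 (0.77 ± 0.09) and Kit (0.28 ± 0.05) were tested and rose, and the defining markers Tpsb2 and Ms4a2 were at 0. Of 8 Schwann cell markers, 7 stayed under 1 FPKM and S100b rose by 0.25 ± 0.07. The part of shifts in cell composition in the other results was not tested.

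The knockdown arm gave a second contrast of Foxm1, with no library shared between the arms. Foxm1 fell by 0.68 ± 0.10 in si-Foxm1 against si-NC (limma adjusted p = 4.33e-05, 12 libraries of the arm in the fit). There, 48.5% of 11180 genes were higher and 17.2% lower, a split that median-of-ratios scaling turned into 2954 higher and 3273 lower, with the median of all genes going from 0.113 to 0.001. Over the 11021 genes tested in both arms, the log2 fold changes had Pearson's r of -0.13 and Spearman's rho of -0.15, as a description across genes that share libraries. Of the genes higher in OE-Foxm1 and tested in both, 24.3% were lower in si-Foxm1 and 39.4% were higher. Of those lower in OE-Foxm1, 56.0% were higher in si-Foxm1 and 14.4% were lower. Among all genes tested in both, 48.5% were higher and 17.3% lower in si-Foxm1. In the other direction, 32.2% of the genes higher in si-Foxm1 were lower in OE-Foxm1 and 38.3% of those lower in si-Foxm1 were higher in OE-Foxm1. Among all genes tested in both, 27.9% were lower and 27.2% higher in OE-Foxm1. These shares of overlap rest on the knockdown calls made without scaling.

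Cholesterol synthesis and S phase genes went in opposite directions in the 2 contrasts. Of all 11180 genes tested with siRNA, 48.5% were higher and 17.2% lower. Under median-of-ratios scaling 2954 of the 11180 were higher and 3273 lower. Cholesterol genes were lower in 19 of 24 with siRNA, and in 22 under median-of-ratios scaling, with Mvk falling by 0.54. S phase genes were higher in 34 of 41 with siRNA, and in 29 under median-of-ratios scaling, with 2 lower. The FOXM1 target genes were higher in 18 and lower in 1 of 30 with siRNA, and in 9 and 3 under that scaling. The 9 higher of 30 lay close to the share of all genes that were higher under that scaling. Cenpa was higher in both contrasts, by 0.36 with overexpression and 0.32 with siRNA. Hmox1 rose with siRNA (0.70 ± 0.05), as did Ccl2 (0.62 ± 0.12), which had also risen with overexpression. No test of the difference between the arms was made, since each arm has its own control.

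**Figure D5:**
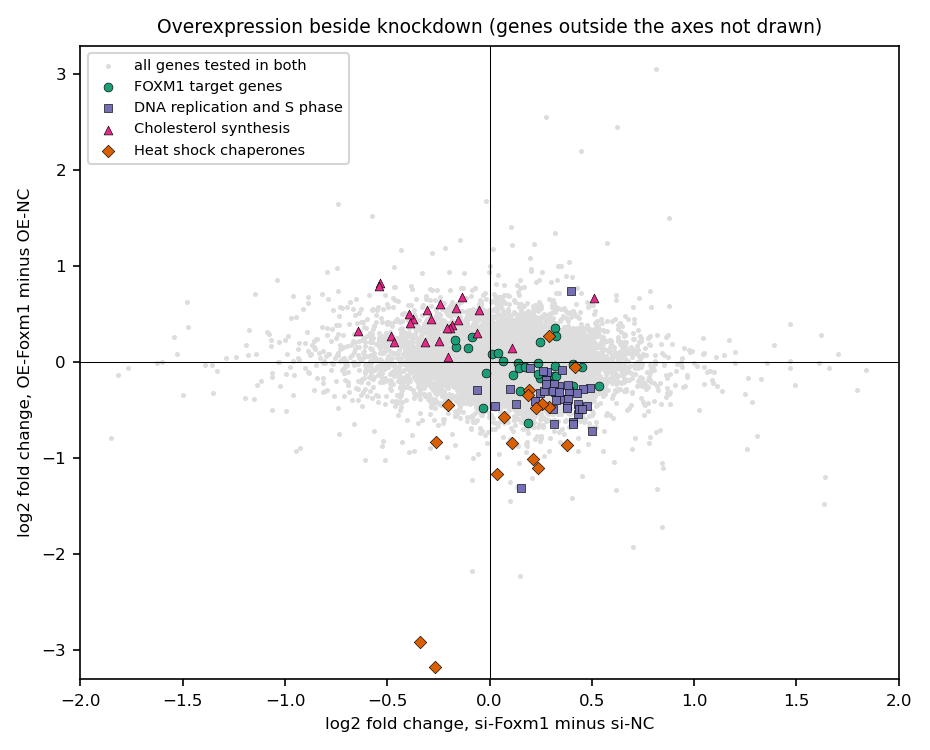
Log2 fold change with overexpression (vertical axis) against log2 fold change with Foxm1 siRNA (horizontal axis), each against its own control, 1 point per gene tested in both, with 4 lists marked and genes outside the axes not drawn. Most cholesterol synthesis genes lie at the upper left, as in Mvk at 0.82 and -0.54, and most S phase genes lie at the lower right, as in Mcm6 at -0.64 and 0.31.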

How the data were processed

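Gene expression was measured by RNA sequencing, and the comparison uses 3 OE-Foxm1 and 3 OE-NC libraries, with the other 12 libraries shown beside them. Per the labels' protocols, mirVana RNA with an integrity number of at least 7 was used at 4 μg per library with the TruSeq stranded mRNA kit. The submitters' processing notes name fastp, HISAT2, HTSeq and mm39, with versions, settings and annotation not given in the sources. In the deposited table, each library has 1 column of FPKM, which the authors made from fragments per gene, gene length and library total. The values of all 17960 genes above 0 gave whole fragment counts within a tolerance of 0.02, which supplied the depth.

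Values were analysed as log2(FPKM + 1), a pseudocount of 1, with no further scaling. Genes with a mean of at least 1 FPKM over the 6 libraries entered a limma fit (version 3.58.1, R 4.3.3) with a mean per group and eBayes with a trend. The Benjamini-Hochberg adjustment covered all 11259 genes, and an adjusted p under 0.05 is a call. The knockdown contrast used a fit of its own 12 libraries.

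Named genes were Foxm1, Usp10, Mapk12, the 10 largest rises and falls whose groups did not overlap, the 4 largest of each among genes with at least 100 FPKM in OE-NC, and, for each of 39 lists, at most 3 called members, taken in order of p. Other members were named after their values were seen. The comparison, members and lists were chosen with earlier results of these data known, so no list is independent evidence. Standard errors and SDs measure the spread between libraries, and the floor of 3 fragments covers counting error only. The replicate numbers are not stated to pair libraries. Alternatives were a pseudocount of 0.1, other filters (0.1 FPKM or none), median-of-ratios scaling, quantile normalization, a replicate block, voom on recovered counts, all 6 groups in the fit, and each library left out in turn. Tables and plots were made in Python 3.11.15 with numpy 2.4.6, pandas 2.3.3 and matplotlib 3.10.9. Promoter sequences are from RefSeq on GRCm38.p6, a different build from the authors', and were matched by symbol.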

Additional observations from a re-analysis of the deposited data

How the results depend on the processing

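The counts of genes called in OE-Foxm1 against OE-NC stayed within 1.5 times of the reported 3052 higher and 3148 lower under every alternative run. Leaving out each library in turn gave 5506 to 5836 called genes, 2690 to 2832 of them higher and 2816 to 3011 lower, and a Foxm1 log2 fold change of 4.64 to 4.78. With si-NC libraries left out in turn, 2749 to 2756 of the genes called lower and 1862 to 1923 of those called higher had OE-Foxm1 nearer si-NC. For the knockdown contrast, leaving out libraries gave 6666 to 6945 called genes, 4940 to 5132 higher and 1726 to 1813 lower. Its split did depend on the scaling, with 2954 higher and 3273 lower under median-of-ratios scaling and 3430 higher and 2975 lower under quantile normalization, against 5418 and 1924 without scaling. A replicate block gave 3066 higher and 3144 lower. Deviations of same-numbered libraries correlated at 0.05, 0.10 and 0.02, so the numbers were not taken to pair them, although each OE-Foxm1 library correlated best with its own number. Of 1764 values of the 126 named genes besides Foxm1, 1759 kept their call, 4 lost it, 1 gained it and 0 changed direction. Those lost were Rpl10 (0.09) and Rps27 (0.06) under quantile normalization and Tie1 without OE-Foxm1 replicate 2 (0.16) or OE-NC replicate 1 (0.14). Of 1092 list counts, 1028 stayed within 1.5 times. Depth limits genes near 0.166 to 0.200 FPKM per kb, where 3 fragments lie.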

Other observations

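Among the genes that changed by at least 2-fold and stood outside the lists described above, those named here were chosen after their values were seen. Cemip, a hyaluronan-degrading protein, was the most abundant of them to rise, from 47.6 ± 2.97 FPKM in OE-NC to 151 ± 6.07 FPKM in OE-Foxm1 (SD, n = 3; log2 fold change 1.65 ± 0.05 by limma), with a mean of 114 FPKM in si-NC. Acod1, which makes itaconate, rose from 0.302 ± 0.0389 to 3.65 ± 0.262 FPKM (1.84 ± 0.06), and Clec4n, the lectin receptor dectin-2, rose from 2.20 ± 0.107 to 8.56 ± 0.116 FPKM (1.58 ± 0.05). The receptor Tlr2 (1.41), the NADPH oxidase subunit Cybb (1.27), the transcription factor Cebpd (1.17), the kappa B cofactor Bcl3 and the inflammatory caspase Casp4 were also higher, each without overlap between the groups. Their part in, or independence of, the macrophage marker shift was not tested.

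Falls of this size outside the lists included Crabp1, a retinoic acid binding protein, from 21.2 ± 0.237 to 8.61 ± 0.488 FPKM (-1.21 ± 0.04), and Procr, the endothelial protein C receptor gene, from 20.7 ± 1.66 to 9.44 ± 0.517 FPKM (-1.05 ± 0.06). The sphingosine phosphate receptor S1pr3 fell by 1.18 ± 0.12 and the DNA glycosylase Neil2 by 1.02 ± 0.06. The si-NC means were 6.51 FPKM for Crabp1, 5.86 FPKM for Procr, 2.55 FPKM for S1pr3 and 3.15 FPKM for Neil2, in each case nearer OE-Foxm1 than OE-NC.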
